A study of Mus musculus with 4 samples.

Results

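The spots of the primary tumour sections that carried the largest and the smallest share of cell-division transcripts were compared within each section. Tumours were grown in 2 BALB/c mice, called mouse A and mouse B, by injecting 100000 4T1 cells into the mammary fat pad at 8 weeks of age, and tissue was taken 28 days later. 4T1 is a mouse mammary carcinoma line that forms a syngeneic, immune-competent model of triple-negative breast cancer and spreads to the lung. All spots therefore come from animals of the same strain, age, cell line and time, with no untreated mouse. One fixed, paraffin-embedded section of each primary tumour, 4 µm thick, was profiled by 10x Visium, which captures gene-specific probe pairs on barcoded positions and counts each molecule once by its identifier (UMI). Each such spot may cover a mixture of cells, so fewer cells of a type and less RNA per cell cannot be told apart.

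Spots under tissue with 3000 or more UMIs were scored by the share of their UMIs on proliferation genes. The rule names 8 genes (Mki67, Top2a, Ccnb1, Cdk1, Birc5, Ube2c, Cenpf and Tpx2), of which 7 were measured, and Ccnb1 was not analysed here. The top 15% of the scored spots of a section are called proliferative and the bottom 15% quiet. In mouse A 1231 of 2596 spots were scored, giving 184 proliferative and 184 quiet spots, and in mouse B 651 of 2372 were scored, giving 97 and 97. The 562 spots of both classes were selected from the 1882 scored of 4968 spots of both tumours, in a series of 9445 spots under tissue over 4 sections. Since the spots of 1 section do not replicate a condition, each class of a section was added up to 1 sum, and n is 2 sections throughout. Levels are given as CPM, the UMIs of a gene in a sum scaled to the same total for every sum.

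A dividing cell copies its DNA in S phase, packs it on newly made histones and separates the copies in mitosis. Genes of the late cycle are driven together by B-MYB and FOXM1, and held silent outside the cycle by the DREAM complex, through a cell cycle homology region (CHR) and CCAAT boxes in their promoters, and genes of the G1/S transition by E2F factors. Cells outside the cycle may express cyclin-dependent kinase inhibitors and other antiproliferative genes. A 4T1 tumour also secretes G-CSF (Csf3), which releases neutrophils from the bone marrow, so that neutrophils are a large part of the tissue around the carcinoma cells.

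The values that chose the spots are a description only. The summed proliferative spots of mouse A and mouse B had scores of 1368 and 1417 CPM, and that of the quiet spots was 156 and 124 CPM. At the upper threshold, the last spot inside and the first spot outside were at 1134.04 and 1133.53 CPM in mouse A, and at 1082 and 1070.01 CPM in mouse B. At the lower threshold they were at 285 and 286 CPM in mouse A and at 229.1 and 229.4 CPM in mouse B. No UMI on a score gene was seen in 44 of the quiet spots of mouse A and in 47 of those of mouse B. Cdk1, the kinase of mitotic entry, stood at 416 and 421 CPM in the proliferative spots and at 47.9 and 53.4 CPM in the quiet spots of mouse A and mouse B. The log2 fold changes of the 7 score genes, between 3.02 and 3.49, follow from the choice of spots and enter no count given here.

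The classes differed in depth. The proliferative spots had a median of 9795 UMIs and 4450 detected genes in mouse A against 6715 UMIs and 3425 genes in the quiet spots, and 10163 UMIs and 4550 genes in mouse B against 4663 UMIs and 2781 genes. In mouse A the proliferative sum held 2153358 UMIs and the quiet sum 1398674, and in mouse B these totals were 1338279 and 768483. Probes of 1178 olfactory and vomeronasal receptor genes, which tumour tissue is not known to use, served as a measure of background. They took 433 CPM of the proliferative and 839 CPM of the quiet spots of mouse A, and 2629 and 5160 CPM in mouse B. Per spot this came to 5.07 UMIs in proliferative against 6.38 in quiet spots of mouse A and to 36.3 against 40.9 in mouse B, so the background was nearer to a fixed number of UMIs per spot than to a fixed share. The quiet spots of both sections were thus the shallower class and held the larger share of background.

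Spots of a class lay near each other. Of the scored neighbours of a proliferative spot, 28.8% in mouse A and 35.5% in mouse B were proliferative, while 15.3% and 15.4% of the neighbours of all scored spots were. Of the neighbours of quiet spots, 32.2% and 28.9% were quiet, against 13.5% and 13.8% around all scored spots. Of the neighbours of proliferative spots, 5.75% and 3.78% were quiet. Quiet spots often bordered shallow tissue: 42.9% of them in mouse A and 55.7% in mouse B touched a spot with fewer than 3000 UMIs, against 12.5% and 21.6% of the proliferative spots and 19.3% and 31.5% of all scored spots. At the edge of the tissue the sections went different ways, with 8.70% of proliferative and 14.1% of quiet spots of mouse A and 20.6% and 8.25% of those of mouse B lying there. These shares describe 1 section each, and neighbouring spots are not independent.

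**Figure D1:**
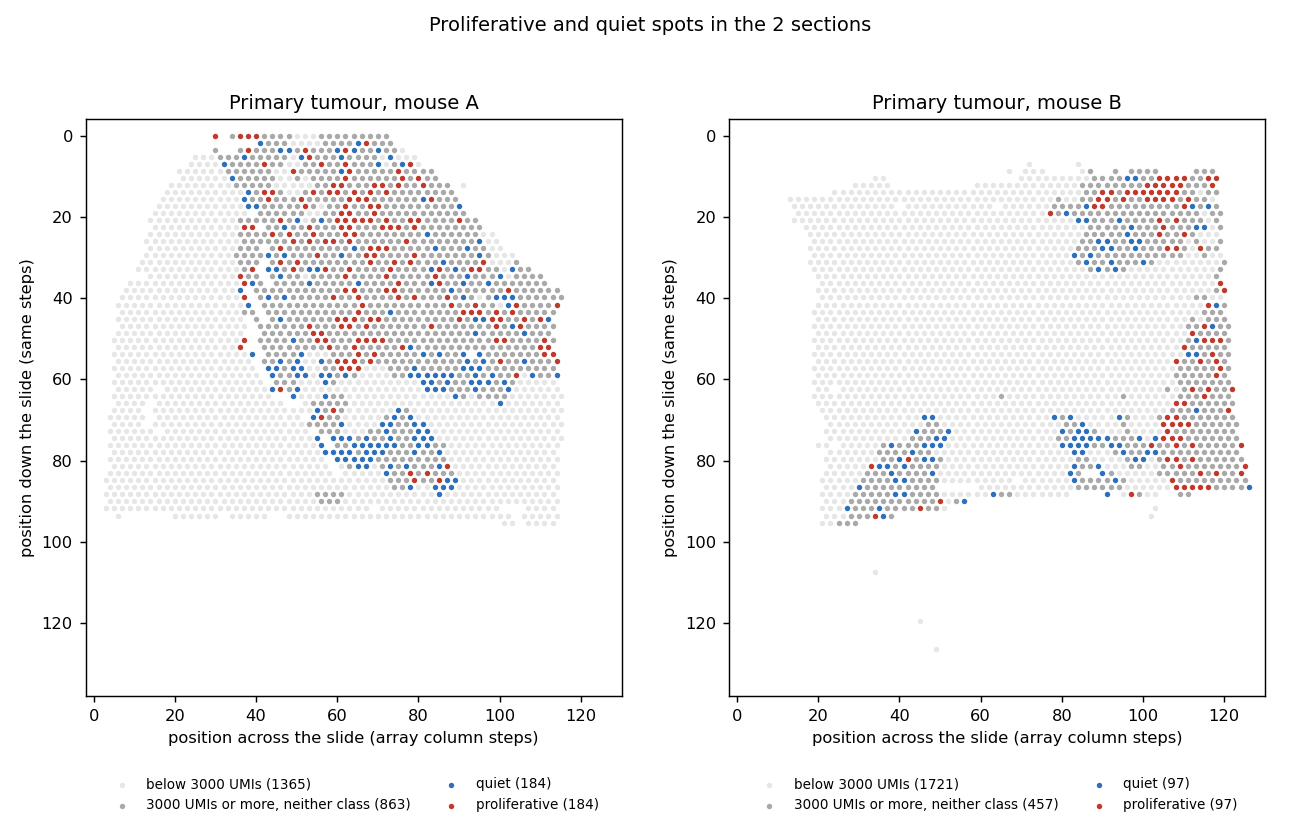
Position of the spots of both primary tumour sections, with both axes in steps of the slide's array columns, to the same scale. Proliferative spots are red, quiet spots blue, other scored spots darker grey and spots with fewer than 3000 UMIs pale grey, and the legend gives the number in each class. In both sections quiet spots gather along the border of the pale grey area, where 42.9% and 55.7% of them touch a spot below 3000 UMIs, against 12.5% and 21.6% of proliferative spots.

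Before the other genes were compared, the tissue was set against its markers. Csf3, the 4T1 product, was at 782 and 829 CPM in proliferative and quiet spots of mouse A and at 1206 and 912 CPM in mouse B, so both classes held this product of the tumour cells. The keratin Krt8 was at 200.2 and 208 CPM in mouse A and at 482 and 394 CPM in mouse B, and the epithelial adhesion gene Epcam was at 10.01 CPM or less in each sum. Of the 10 tested carcinoma epithelial genes none was called and their median log2 fold change was -0.10. The carcinoma epithelial list took 1353 and 1459 CPM of proliferative and quiet spots of mouse A, and 1868 and 1718 CPM in mouse B. The list was thus lower in the proliferative spots of mouse A and higher in those of mouse B.

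In the test of all genes outside the score, 93 of 10060 genes were called higher in proliferative spots (0.924%) and 21 were called lower (0.209%). The test was edgeR's quasi-likelihood test of the 4 sums with the section as a block, at an adjusted p of 0.05. All 114 genes had the same direction in both sections, which a test with the section as a block favours. Of all 10060 genes, 3471 were higher and 2502 were lower in both sections. Of the 93, 57 belong to the mitotic or the replication list or are histone genes with a symbol that starts with Hist. The same UMIs of a spot form the denominator of its score and of the level of every other gene, and mitotic genes vary with the score genes by their shared phase, so the counts for the cell-cycle lists describe the choice of spots and are not independent evidence. The model without the replicate block called none (522 genes at an unadjusted p under 0.05).

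**Figure D2:**
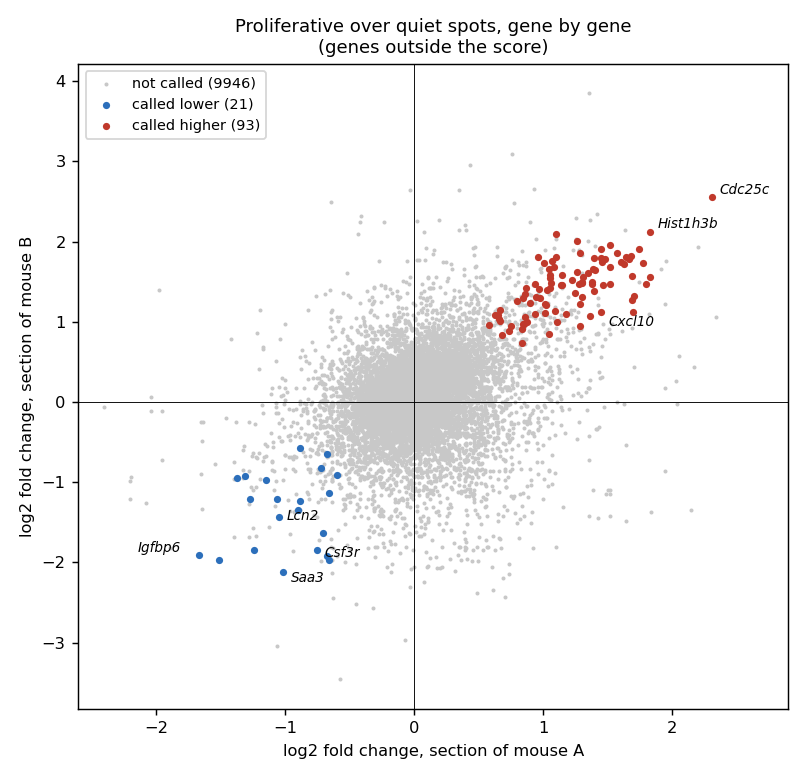
Log2 fold change of each gene tested outside the score, proliferative over quiet spots, in the section of mouse A (horizontal axis) and of mouse B (vertical axis), each from log2(CPM + 1). The 93 genes called higher (red) all lie in the upper right quadrant and the 21 called lower (blue) all in the lower left.

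Of the 71 tested mitotic genes outside the score, 27 were called higher (38.0%, against 0.924% of all genes) and none lower. In both sections 69 of 71 were higher, against 3471 of all 10060 genes tested outside the score. The median log2 fold change of the mitotic list was 1.25. That median was 0.73 when every spot was thinned to 3000 UMIs before scoring, and 0.79 with a score from Cdk1, Birc5 and Tpx2. The summed list was at 2423 CPM in quiet and 5093 CPM in proliferative spots of mouse A, and at 2416 and 5471 CPM in those of mouse B. Single spots of the classes overlapped. The list ranged from 1933 to 8053 CPM in proliferative and from 718 to 6692 CPM in quiet spots of mouse A. In mouse B it ranged from 2084 to 10370 CPM and from 760 to 6845 CPM. Ccna2, the cyclin of S phase and mitotic entry (chr3:36564865-36572150, minus strand), was at 263 and 81.5 CPM in proliferative and quiet spots of mouse A and at 256 and 71.6 CPM in mouse B. Its log2 fold change was 1.72 ± 0.14 (SE of the fit, n = 2 sections; adjusted p = 0.0021). Here and below, ± comes from the fitted model and is not the spread between the 2 mice. Hmmr, a spindle assembly factor, was at 57.1 and 18.6 CPM in mouse A and at 78.5 and 20.8 CPM in mouse B (a change of 1.70 ± 0.22, adjusted p = 0.015). Cdca3, which triggers mitotic entry, changed by 1.77 ± 0.20 (adjusted p = 0.0089), and Nuf2, a kinetochore subunit, by 1.87 ± 0.31 (adjusted p = 0.035). Cdc25c, the phosphatase that activates Cdk1, had the largest fitted change (2.70 ± 0.47, adjusted p = 0.041) but rested on few reads, namely 39 UMIs in proliferative and 4 in quiet spots of mouse A, and 27 and 2 in those of mouse B. When spots were thinned, Hmmr (adjusted p = 0.227) and Cdca3 (adjusted p = 0.691) lost their calls, and Nuf2 and Cdc25c had no value.

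Members of the list that missed the threshold are named with their values. Plk1, the mitotic kinase, was at 39.01 and 15.7 CPM in mouse A and at 45.6 and 10.4 CPM in mouse B (log2 fold change 1.57 ± 0.29, adjusted p = 0.054). Aurka, the spindle pole kinase, had a larger fitted change, 1.97 ± 0.45, from lower counts (adjusted p = 0.10). Ube2s, the ubiquitin-conjugating enzyme that is the most abundant member of the list, was at 261 and 199 CPM in mouse A and at 238 and 186 CPM in mouse B, a log2 fold change of 0.33 ± 0.12 (adjusted p = 0.32). In all, 44 of the 71 were not called.

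The promoters of the mitotic genes are shown because the list moved together. Sequences run from 250 bases before to 50 after the gene's first base and were taken from RefSeq (GRCm38.p6). They were searched on both strands for the CHR (TTTGAA), the CCAAT box (CCAAT) and a strict E2F site (TTTCGCG), motifs that do not contain one another. RefSeq promoters were matched for 62 of the mitotic genes (67 promoters). Of these genes 19 were called higher, so the shares describe the list and not the contrast. A CHR stood in 71.6% of the 67 promoters, against 17.9% of all 32851 promoters, and a CCAAT box in 70.1% against 37.4%. Both stood in 58.2% against 6.95%. The E2F site stood in 1.49%, and in 18.2% of the 66 promoters of the replication list against 0.849% of all. Those 66 promoters held a CCAAT box in 60.6% and a CHR in 15.2%. A match is a description of these letters and not a measured binding site. From 180 bases before to 20 after the first base, written 5′ to 3′ on the gene's strand with the matched letters in capitals, the promoters of 2 mitotic genes and of the replication gene Mcm5 read:
Hmmr (chr11:40733418-40733617, minus strand): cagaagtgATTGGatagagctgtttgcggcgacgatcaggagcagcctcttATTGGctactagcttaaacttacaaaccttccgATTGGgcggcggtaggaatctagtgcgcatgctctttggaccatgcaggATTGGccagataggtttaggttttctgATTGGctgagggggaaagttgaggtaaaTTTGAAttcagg
Ccnb2 (chr9:70421535-70421734, minus strand): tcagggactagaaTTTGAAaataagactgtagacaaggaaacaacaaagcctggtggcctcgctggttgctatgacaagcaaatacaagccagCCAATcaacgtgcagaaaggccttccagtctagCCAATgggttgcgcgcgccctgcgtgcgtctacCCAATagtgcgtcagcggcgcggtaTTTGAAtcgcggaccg
Mcm5 (chr8:75109329-75109528, plus strand): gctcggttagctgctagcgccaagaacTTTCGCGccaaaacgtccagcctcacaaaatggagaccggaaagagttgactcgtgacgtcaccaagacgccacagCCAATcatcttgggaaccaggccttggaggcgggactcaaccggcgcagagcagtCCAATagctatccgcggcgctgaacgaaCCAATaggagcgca

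Counting the gene's first base as 0, the Hmmr promoter has a CHR at 8, after 5 inverted CCAAT boxes (ATTGG). Ccnb2, a mitotic cyclin, has CCAAT boxes at -87, -54 and -21 and a CHR at -167 and at 4. Its level was 101 and 41.5 CPM in mouse A and 118 and 28.6 CPM in mouse B, a log2 fold change of 1.54 ± 0.21 (adjusted p = 0.018). The Mcm5 promoter holds the E2F letters at -153 and 3 CCAAT boxes and no CHR. Mcm5, a subunit of the replicative helicase, was at 99.4 and 48.6 CPM in mouse A and at 120 and 50.7 CPM in mouse B, a change of 1.08 ± 0.17 (adjusted p = 0.029).

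Replication and S phase genes had a smaller median. Of 70 tested, 14 were called higher (20%, against 0.924% of all genes) and none lower, and the median log2 fold change was 0.83. In both sections 66 were higher, against 3471 of all 10060 genes tested outside the score. When spots were thinned to equal depth the median was 0.51. Tk1, the salvage kinase that makes thymidine monophosphate, was at 194 and 87.2 CPM in mouse A and at 185 and 61.2 CPM in mouse B, a change of 1.30 ± 0.15 (adjusted p = 0.011). Asf1b, a histone chaperone, changed by 1.504 ± 0.21 (adjusted p = 0.021). All 6 MCM helicase genes were higher in both sections and 3 were called, while Mcm2 was not (0.66 ± 0.16, adjusted p = 0.11). Tipin, the most abundant member, was at 298 and 188 CPM in mouse A and at 268 and 121 CPM in mouse B (0.83 ± 0.15, adjusted p = 0.041). Pcna, the sliding clamp and a usual mark of S phase, stood at 3.74 CPM or less in every sum and was not tested, and Rrm2 was not analysed here.

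Histone genes with a symbol that starts with Hist, a group put together after their values were seen, held the genes with the lowest adjusted p outside the score. The group leaves out the histone genes H2afx (1.55 ± 0.19, adjusted p = 0.012) and H2afz (0.72 ± 0.12, adjusted p = 0.035), which were also called higher. Replication-dependent histones are transcribed in S phase. Of 24 tested, 16 were called higher (66.7%, against 0.924% of all genes) and none lower. Their median was 1.31, or 0.79 when spots were thinned to equal depth. Hist1h3b (chr13:23752267-23752886, plus strand) was at 404 and 113 CPM in proliferative and quiet spots of mouse A and at 208 and 46.8 CPM in mouse B, a change of 1.91 ± 0.14 (adjusted p = 0.0016). Hist1h3c (chr13:23744973-23745602, minus strand) was at 894 and 285 CPM in mouse A and at 783 and 223 CPM in mouse B, a change of 1.69 ± 0.12 (adjusted p = 0.0014). Hist1h2ag changed by 1.77 ± 0.24 (adjusted p = 0.017). These genes have near-identical copies, so probes may cross between them and the value of a single histone gene is uncertain.

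Of 29 tested genes for D cyclins, MYC and ribosome biogenesis none was called, and the median log2 fold change was 0.10. With 0.924% and 0.209% of all genes called higher and lower, 0 or 1 call in a list of this size is not read as a result about the list, here and below. Ccnd1, the D cyclin that receives growth signals, was at 1385 and 1247 CPM in mouse A and at 1471 and 1196 CPM in mouse B (0.18 ± 0.12, adjusted p = 0.56). Myc was at 228 and 217 CPM in mouse A and at 196 and 206 CPM in mouse B (-0.03 ± 0.13, adjusted p = 0.96). Ncl, a nucleolar protein and the most abundant member, differed by -0.08 ± 0.12 (adjusted p = 0.83). The difference of Ccnd1 had 1 sign in both sections, and that of Myc opposite signs.

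On the antiproliferative side, 25 genes were tested, of which 2 were called lower, 1 was called higher and 22 were not called. The calls were 8% lower and 4% higher, against 0.209% and 0.924% of all genes. The median of the list was -0.39 (mouse A alone -0.30, mouse B alone -0.32), and between -0.44 and -0.23 under other settings. Of the 25, 15 were lower in both sections, against 2502 of all 10060 genes tested outside the score. Gadd45a, a stress-induced inhibitor of Cdk1 (chr6:67035096-67037457, minus strand), was at 116 and 214 CPM in proliferative and quiet spots of mouse A and at 84.4 and 199 CPM in mouse B, a change of -1.07 ± 0.15 (adjusted p = 0.017). Klf9, a glucocorticoid-induced transcription factor, was at 28.3 and 71.5 CPM in mouse A and at 45.6 and 87.2 CPM in mouse B (-1.18 ± 0.19, adjusted p = 0.033). Rbl1, which encodes p107 and is itself an E2F target, went the other way and was the only member called higher (1.496 ± 0.26, adjusted p = 0.042). These calls were lost when spots were thinned to equal depth, with Gadd45a at -0.69 (adjusted p = 0.0694), Klf9 at -0.71 (adjusted p = 0.439) and Rbl1 at 0.26 (adjusted p = 0.943). The classical inhibitors were not called: Cdkn1a, p21, was at 117 and 139 CPM in mouse A and at 122 and 131 CPM in mouse B (-0.23 ± 0.13, adjusted p = 0.53), and Cdkn1b, p27, changed by -0.40 ± 0.15 (adjusted p = 0.34). Btg1, the most abundant member, was at 539 and 659 CPM in mouse A and at 452 and 617 CPM in mouse B (-0.41 ± 0.12, adjusted p = 0.20).

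Of 24 tested hypoxia response genes none was called, which is near the background share, and the median was -0.30 (mouse A alone -0.29, mouse B alone -0.19). Of the 24, 15 were lower in both sections, against 2502 of all 10060 genes tested outside the score. Slc2a1, the glucose transporter GLUT1, was at 721 and 1086 CPM in mouse A and at 1022 and 1265 CPM in mouse B (-0.49 ± 0.12, adjusted p = 0.12), and it was called lower under 6 of 17 other settings. Vegfa differed by -0.40 ± 0.14 (adjusted p = 0.29). Car9, the carbonic anhydrase of hypoxic cells, was at 729 and 914 CPM in mouse A and at 790 and 781 CPM in mouse B, so the sections differed in direction (-0.20 ± 0.12, adjusted p = 0.56). Over 5 bands of the score the summed list was lower in each step in mouse A, from 6057 to 4588 CPM. In mouse B it was at 6972 CPM in the middle band and was at 6189 CPM in the quiet and at 5376 CPM in the proliferative spots.

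The related stress and metabolic lists held a single call. Ddit3, the transcription factor CHOP, was at 125 and 201 CPM in mouse A and at 172 and 269 CPM in mouse B (-0.70 ± 0.12, adjusted p = 0.041). It was the only call among 17 genes of the integrated stress and amino acid response (5.88%, against 0.209% of all genes called lower), whose median was -0.08. This single call is not read as a result about the list, of which 7 members were higher and 7 lower in both sections. Cebpb, the most abundant member, was at 1211 and 1700 CPM in mouse A and at 1432 and 1858 CPM in mouse B (-0.47 ± 0.12, adjusted p = 0.12). None of 13 glycolysis, 24 respiratory chain, 18 heat shock and 19 p53 target or cell death genes was called, and their medians lay between -0.09 and 0.07.

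**Figure D3:**
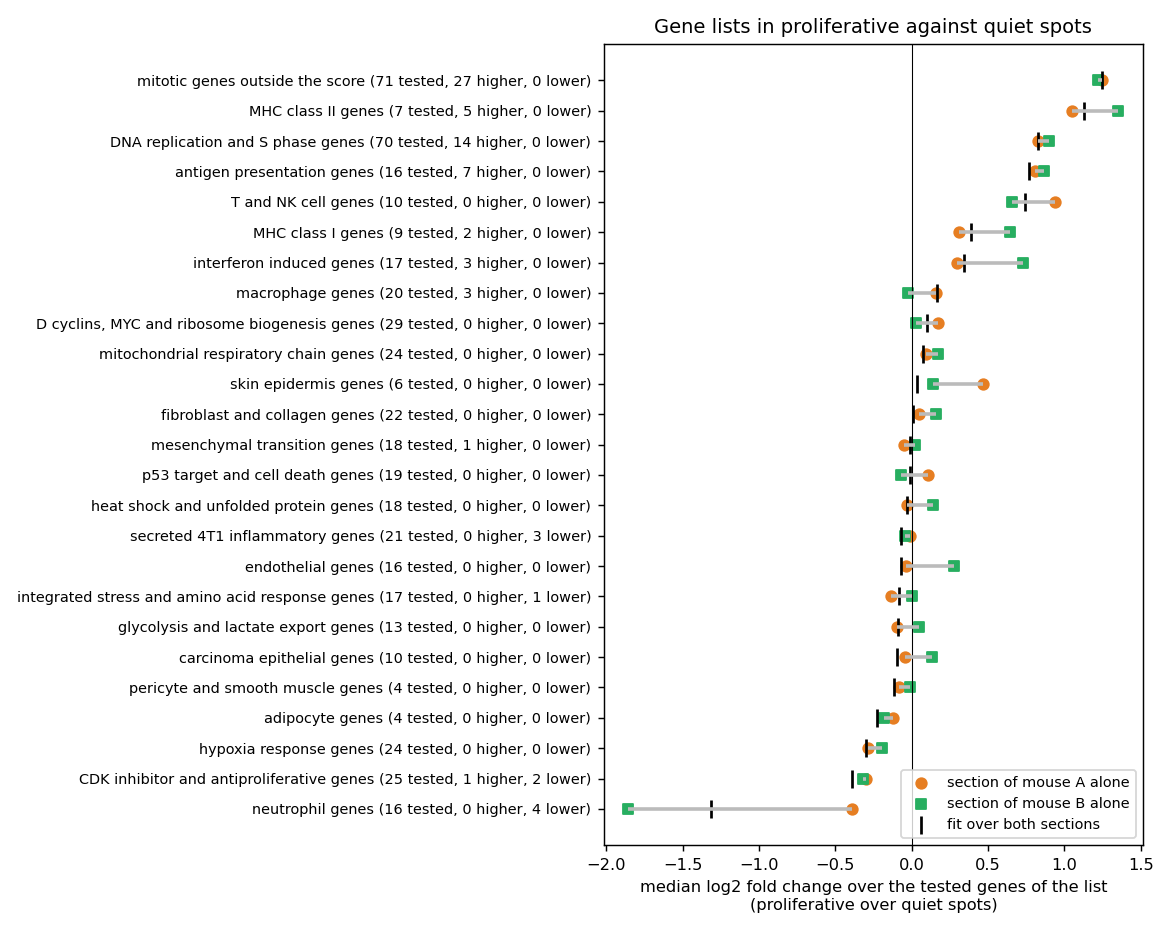
Median log2 fold change (proliferative over quiet spots, horizontal axis) over the tested genes of each list with 4 or more tested, in the section of mouse A (circles), of mouse B (squares) and in the fit over both (bars). The number tested and called stands beside each name, and the neutrophil list has the largest distance between the sections, from -0.39 in mouse A to -1.86 in mouse B.

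Of the 16 tested antigen presentation genes, 7 were called higher in proliferative spots (43.75%, against 0.924% of all genes), none was called lower and 9 were not called. The median was 0.77. That median was 0.43 when spots were thinned to equal depth, and 0.41 with a score from Cdk1, Birc5 and Tpx2. Of the 16, 13 were higher and 1 was lower in both sections, against 3471 and 2502 of all 10060 genes tested outside the score. MHC class II genes made up most of this, with 5 of 7 called and a median of 1.13. Cd74, the invariant chain that guides class II molecules, was at 3275 and 1712 CPM in proliferative and quiet spots of mouse A and at 853 and 307 CPM in mouse B (1.14 ± 0.15, adjusted p = 0.015). H2-Ab1, a class II beta chain, was at 478 and 246 CPM in mouse A and at 97.9 and 27.3 CPM in mouse B (1.15 ± 0.18, adjusted p = 0.033). Its call was lost when spots were thinned (0.44, adjusted p = 0.481) and within bins of depth (1.14, adjusted p = 0.052). H2-DMa, which loads peptides on class II, changed by 1.40 ± 0.18 (adjusted p = 0.015). Of 9 genes of the class I pathway 2 were called, and B2m, the class I light chain, was at 5698 and 5857 CPM in mouse A and at 6406 and 5374 CPM in mouse B (0.07 ± 0.13, adjusted p = 0.87).

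Macrophage genes, which mark the main class II-bearing cells of such tissue, were split. The C1q genes, which encode the first component of complement and lie side by side on chromosome 4, were called: C1qa (chr4:136895917-136898803, minus strand) was at 987 and 483 CPM in mouse A and at 197 and 74.2 CPM in mouse B (1.13 ± 0.14, adjusted p = 0.011). C1qb changed by 0.96 ± 0.16 (adjusted p = 0.037) and C1qc by 1.24 ± 0.17 (adjusted p = 0.017). The other 17 tested members were not called, so 15% of the list was called higher, against 0.924% of all genes. The median of the list was 0.16. The whole list took 4163 and 3073 CPM of the proliferative and quiet spots of mouse A and 1212 and 1127 CPM in mouse B, and 15 of 20 members were higher in mouse A and 10 in mouse B. Csf1r, the receptor that defines macrophages, was at 84.98 and 50.8 CPM in mouse A and at 25.4 and 28.6 CPM in mouse B (0.44 ± 0.25, adjusted p = 0.52). Adgre1 was at 5.72 CPM or less in all sums. Among spots with the smaller share of macrophage genes, an alternative added after the data were seen, Cd74 changed by 1.24 (adjusted p = 0.000186) and H2-DMa by 2.03 (adjusted p = 0.00199). In those spots C1qa still changed by 1.09, C1qb by 1.19 and C1qc by 1.19, while the median of the macrophage list was -0.14. The choice of these spots thus did not level all macrophage genes, and whether macrophages carry the class II difference was not tested. Of the 114 called genes, 101 were called there too. Calls were lost, with the sign kept, for Cxcl10 at 1.87 (adjusted p = 0.128), Clec4d at -1.05 (adjusted p = 0.0674), Chil1 at -1.17 (adjusted p = 0.137) and Igfbp6 at -1.42 (adjusted p = 0.0747). They were also lost for Galnt15 at -1.57 (adjusted p = 0.0596), Ddit3 at -0.59 (adjusted p = 0.067), Rbl1 at 1.51 (adjusted p = 0.0577) and Cdc25c at 2.74 (adjusted p = 0.0839).

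Among interferon-induced genes 3 of 17 were called higher (17.6%, against 0.924% of all genes) and none lower, with a median of 0.34. Taken alone, mouse A had a median of 0.29 and mouse B one of 0.73. None of the 3 calls held when spots were thinned to equal depth. Iigp1, an interferon-gamma-induced GTPase, was at 270.3 and 110.1 CPM in mouse A and at 71.0 and 36.4 CPM in mouse B (1.17 ± 0.16, adjusted p = 0.017). Cxcl10, a chemokine for activated T cells, was at 73.8 and 26.5 CPM in mouse A and at 23.9 and 10.4 CPM in mouse B (1.38 ± 0.24, adjusted p = 0.044). Gbp2 changed by 0.78 ± 0.14 (adjusted p = 0.041), whereas Bst2, the most abundant member, changed by 0.34 ± 0.16 (adjusted p = 0.42). None of the 10 tested T and NK cell genes was called, with a median of 0.74 that was 0.12 when spots were thinned to equal depth. Cd3e, a chain of the T cell receptor complex, was at 26.5 and 13.6 CPM in mouse A and at 9.71 and 6.51 CPM in mouse B (0.83 ± 0.35, adjusted p = 0.39), and Prf1, perforin, was at 74.8 and 73.6 CPM in mouse A and at 153 and 31.2 CPM in mouse B (0.88 ± 0.40, adjusted p = 0.42; -0.30 when thinned).

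**Figure D4:**
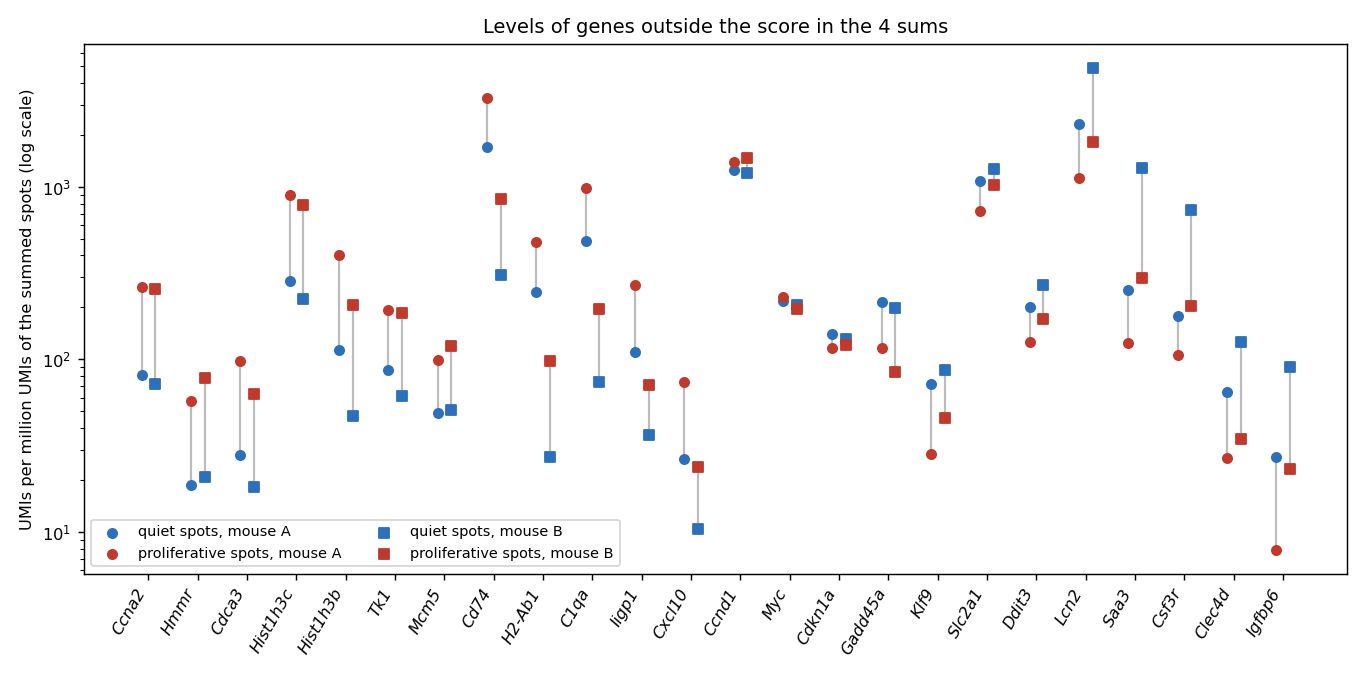
Level of 24 genes outside the score in the 4 sums, in CPM of the summed spots on a log axis, with proliferative spots in red, quiet spots in blue, mouse A as circles and mouse B as squares. Red lies above blue in both mice for the cell-cycle, class II, C1q and interferon genes on the left, and below it for Gadd45a, Klf9, Slc2a1, Ddit3 and the genes to their right.

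Of the 16 tested neutrophil genes, 4 were called lower in proliferative spots (25%, against 0.209% of all genes), none was called higher and 12 were not called. Their median was -1.31. In both sections 14 were lower, against 2502 of all 10060 genes tested outside the score. When the classes were drawn within bins of depth the median was -1.01. The whole list, with 20 measured members, took 2855 CPM of the proliferative and 3962 CPM of the quiet spots of mouse A, and 6641 and 23527 CPM in mouse B. Taken alone, mouse A had a median of -0.39 and mouse B one of -1.86, a difference between the mice that was not tested. Over single spots the list ranged from 638 to 14035 CPM in proliferative and from 832 to 19972 CPM in quiet spots of mouse A, and from 932 to 56183 CPM and from 1775 to 120222 CPM in mouse B. Spots of the 2 classes thus overlapped widely in both sections.

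Csf3r, the receptor for G-CSF (chr4:126024550-126044440, plus strand), was at 106 and 179 CPM in mouse A and at 204 and 737 CPM in mouse B (-1.38 ± 0.24, adjusted p = 0.041). Clec4d, a C-type lectin of myeloid cells, was at 26.9 and 65.1 CPM in mouse A and at 34.4 and 126 CPM in mouse B (-1.60 ± 0.21, adjusted p = 0.017), and Mmp8, the neutrophil collagenase, changed by -1.54 ± 0.28 (adjusted p = 0.049). The most abundant members, S100a8 and S100a9, which form calprotectin, did not pass in these sums: S100a9 was at 1143 and 1564 CPM in mouse A and at 3253 and 13233 CPM in mouse B (-1.29 ± 0.32, adjusted p = 0.13), and S100a8 had a change of -1.31 ± 0.30 (adjusted p = 0.10). Within bins of depth Csf3r was at -1.07 (adjusted p = 0.198), Clec4d at -1.25 (adjusted p = 0.158) and Mmp8 at -1.23 (adjusted p = 0.198), so that these calls were lost. Thinned to 3000 UMIs, the other way of holding depth, the calls held for Csf3r at -1.29 (adjusted p = 9.9e-10), Clec4d at -1.82 (adjusted p = 1.74e-05) and Mmp8 at -1.35 (adjusted p = 0.00066). S100a8 at -1.15 (adjusted p = 2.43e-18) and S100a9 at -1.16 (adjusted p = 1.91e-23) also passed there. Within bins of depth they did not pass, at -0.98 (adjusted p = 0.321) and -0.87 (adjusted p = 0.426), and DESeq2 did not call them. They were called under 10 and 9 of 17 other settings. In the main sums S100a8 changed by -0.53 in mouse A and -1.99 in mouse B, and S100a9 by -0.45 and -2.02. The small adjusted p of the thinned fit is therefore no measure of the spread between the 2 mice. The sections agreed in direction and differed in size for these genes.

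Among secreted 4T1 genes 3 were called lower (14.3% of those tested, against 0.209% of all genes). Saa3, an acute-phase protein (chr7:46711998-46715700, minus strand), was at 125 and 253 CPM in proliferative and quiet spots of mouse A and at 295 and 1280 CPM in mouse B (-1.64 ± 0.24, adjusted p = 0.022). Lcn2, the siderophore-binding lipocalin made by both neutrophils and 4T1 cells (chr2:32384633-32388252, minus strand), was at 1122 and 2314 CPM in mouse A and at 1814 and 4881 CPM in mouse B (-1.28 ± 0.14, adjusted p = 0.0075). Cxcl3, a neutrophil chemokine, changed by -1.20 ± 0.18 (adjusted p = 0.024). These were the only calls among 21 tested genes of that list, whose median was -0.07. Csf3 was not among them (0.12 ± 0.14, adjusted p = 0.78), nor was Spp1, osteopontin, at 2476 and 3484 CPM in mouse A and at 5103 and 4001 CPM in mouse B (-0.11 ± 0.19, adjusted p = 0.85).

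Of the named genes in no list, Igfbp6, which binds insulin-like growth factor 2 (chr15:102144362-102149511, plus strand), was at 7.89 and 27.2 CPM in mouse A and at 23.2 and 89.8 CPM in mouse B (-1.92 ± 0.25, adjusted p = 0.015). Chil1, a chitinase-like protein (chr1:134182176-134190181, plus strand), was at 7.89 and 24.3 CPM in mouse A and at 33.6 and 134.03 CPM in mouse B (-1.91 ± 0.23, adjusted p = 0.011). Wfdc21 was at 51.1 and 82.2 CPM in mouse A and at 122 and 463 CPM in mouse B (-1.44 ± 0.26, adjusted p = 0.049). Its change was -0.68 in mouse A alone and -1.92 in mouse B alone. Galnt15 changed by -1.32 ± 0.22 (adjusted p = 0.037). Spag5, a spindle protein in no list, was higher by 1.76 ± 0.28 (adjusted p = 0.033). Among spots with the smaller share of neutrophil genes, an alternative added after the data were seen, Lcn2 changed by -1.11 (adjusted p = 4.32e-09) and Saa3 by -0.88 (adjusted p = 9.16e-05). Members of the neutrophil list are not read there, since the list itself chose these spots. Cxcl3, Igfbp6 and Chil1 lost their calls, at -0.87 (adjusted p = 0.0722), -0.43 (adjusted p = 0.668) and -1.03 (adjusted p = 0.171).

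The structural cell types were near the background share too. Of 22 fibroblast and collagen, 16 endothelial and 4 pericyte and smooth muscle genes none passed, with medians of 0.01, -0.07 and -0.12. Col1a1 was at 292 and 275 CPM in mouse A and at 77.7 and 76.8 CPM in mouse B (0.03 ± 0.13, adjusted p = 0.96), and Pecam1 was at 45.5 and 41.5 CPM and at 35.1 and 22.1 CPM (0.29 ± 0.23, adjusted p = 0.66). In the mesenchymal transition list S100a4, a calcium-binding protein of motile cells, was the single call, at 1114 and 744 CPM in mouse A and at 1121 and 578 CPM in mouse B (0.72 ± 0.13, adjusted p = 0.044). Vim, the mesenchymal filament, was at 5956 and 6410 CPM in mouse A and at 6864 and 6199 CPM in mouse B (-0.02 ± 0.13, adjusted p = 0.97). B cell, skin, adipocyte and skeletal muscle lists had 2, 6, 4 and 1 tested genes and no call, and Krt14 and Adipoq were at 28.3 CPM or less and at 5.21 CPM or less.

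**Figure D5:**
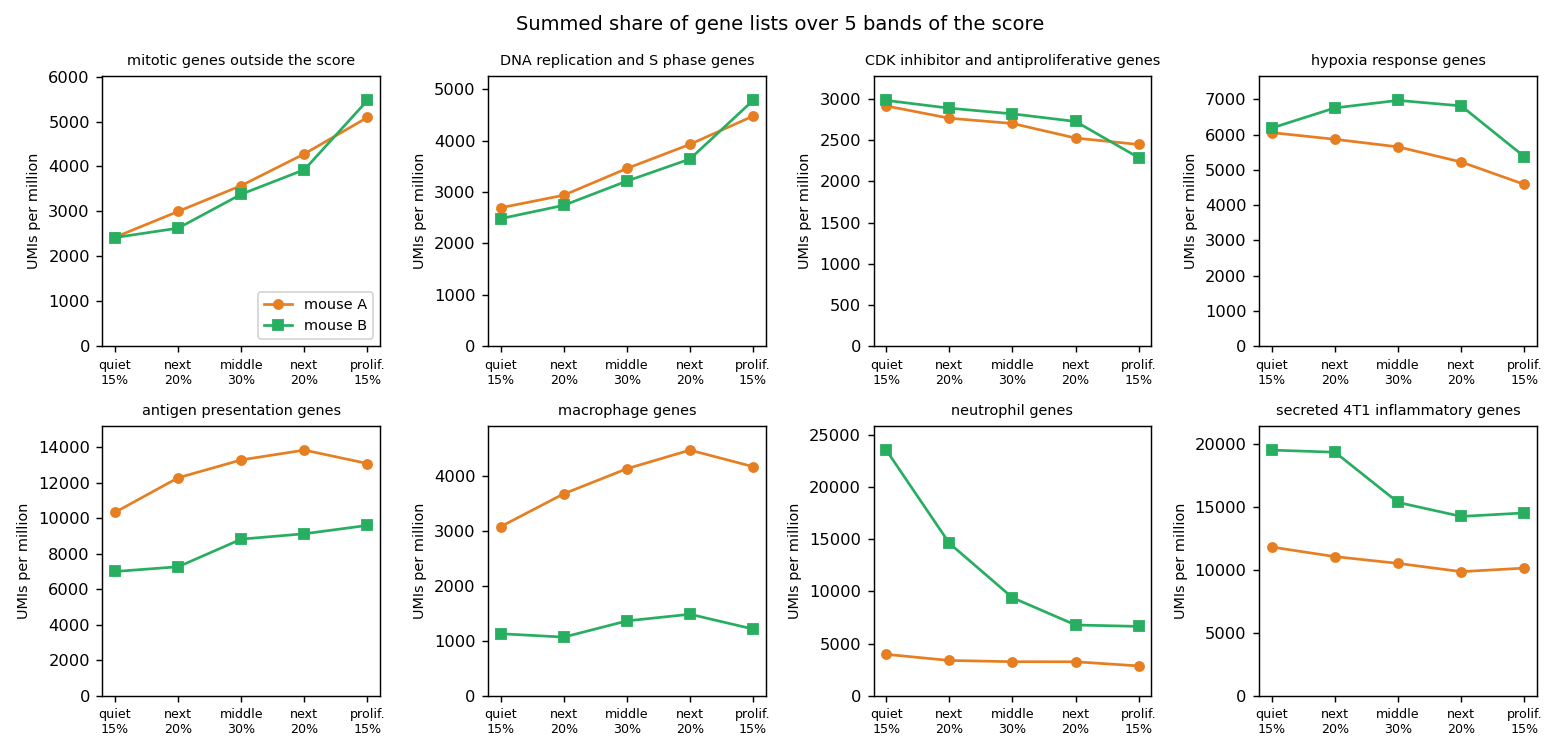
Summed CPM (vertical axis, from 0) of 8 gene lists in 5 bands of the score, from the quiet 15% to the proliferative 15% of scored spots, in mouse A (circles) and mouse B (squares), with 184, 247, 369, 247 and 184 spots in mouse A and 97, 131, 195, 131 and 97 in mouse B. Mitotic and replication genes climb and CDK inhibitor genes fall over all bands in both mice, and the neutrophil list falls from 23527 to 6641 CPM in mouse B.

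Over the 5 bands, the values between the extremes show which changes were graded. Ccna2 rose in each step, from 81.5 over 137, 152 and 214 to 263 CPM in mouse A and from 71.6 over 80.3, 124 and 151 to 256 CPM in mouse B. Gadd45a fell in each step, from 214 over 191, 168 and 137.8 to 116 CPM in mouse A and from 199 over 162, 145 and 102 to 84.4 CPM in mouse B. Lcn2 also fell in each step in both mice. Summed levels of antigen presentation genes went from 10327 to 13829 CPM up to the band below the proliferative spots of mouse A and stood at 13073 CPM in the proliferative spots, whereas in mouse B they climbed over all bands from 6994 to 9591 CPM. C1qa likewise was highest in the band below the proliferative spots in both mice, at 995 and 244 CPM. Depth differed along the same axis, with medians of 6715, 8670 and 9795 UMIs per spot in quiet, intermediate and proliferative spots of mouse A. In mouse B the same medians were 4663, 7747 and 10163 UMIs. Its part in the graded values was not tested.

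For the proliferative against the quiet spots, depth was held fixed in 2 ways. When every spot was thinned to 3000 UMIs before scoring, 78 genes were called, 30 higher and 48 lower, of which 37 were among the 114. The median of the mitotic list was then 0.73 and that of the antigen presentation list 0.43, and Hist1h3b changed by 1.09 (adjusted p = 3.19e-05) and Cd74 by 0.71 (adjusted p = 2.31e-05). The 112 of the 114 genes that had a value kept their sign, which the use of the same 2 sections favours. Of the called cell-cycle genes described above, Ccna2, Tk1, Hist1h3b and Hist1h3c kept their calls, and Cdc25c and Nuf2 had no value. Calls were lost for Ccnb2 at 0.36 (adjusted p = 0.848), Cdca3 at 0.56 (adjusted p = 0.691), Hmmr at 1.07 (adjusted p = 0.227), Spag5 at 1.65 (adjusted p = 0.107), Asf1b at 0.25 (adjusted p = 0.934), Mcm5 at 0.57 (adjusted p = 0.553), Tipin at 0.53 (adjusted p = 0.263) and Hist1h2ag at 0.86 (adjusted p = 0.439). Among immune genes they were lost for H2-Ab1 at 0.44 (adjusted p = 0.481), C1qb at 0.56 (adjusted p = 0.259), Iigp1 at 0.70 (adjusted p = 0.097) and Gbp2 at 0.41 (adjusted p = 0.446). They were also lost for Ddit3 at -0.59 (adjusted p = 0.132), S100a4 at 0.40 (adjusted p = 0.148), Galnt15 at -0.63 (adjusted p = 0.756), Rbl1 at 0.26 (adjusted p = 0.943), Gadd45a at -0.69 (adjusted p = 0.0694), Klf9 at -0.71 (adjusted p = 0.439), Cxcl10 at 1.25 (adjusted p = 0.147), Igfbp6 at -1.15 (adjusted p = 0.271) and Chil1 at -1.001 (adjusted p = 0.265). When the classes were drawn within 10 bins of depth, 79 genes were called higher and 11 lower, 69 of them among the 114, and the mitotic median was 1.27. Besides the neutrophil genes, calls were lost there with the sign kept for Saa3 at -1.39 (adjusted p = 0.0783), Cxcl3 at -0.89 (adjusted p = 0.0635), Wfdc21 at -1.21 (adjusted p = 0.12), Igfbp6 at -1.501 (adjusted p = 0.0549), Ddit3 at -0.5003 (adjusted p = 0.145) and Klf9 at -1.05 (adjusted p = 0.052). The same held for C1qb at 0.89 (adjusted p = 0.0903), C1qc at 1.05 (adjusted p = 0.0669), H2-Ab1 at 1.14 (adjusted p = 0.052), Gbp2 at 0.73 (adjusted p = 0.0791), Cxcl10 at 1.45 (adjusted p = 0.055), Cdc25c at 2.44 (adjusted p = 0.0579), Spag5 at 1.45 (adjusted p = 0.0593), Mcm5 at 0.93 (adjusted p = 0.0515) and Tipin at 0.77 (adjusted p = 0.052). Thinning also makes the score itself coarser, since fewer UMIs on score genes remain.

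The same rule was applied to the lung sections of the same mice, to ask where the contrast differed between the tissues. The lungs, which hold normal tissue beside tumour foci, gave 444 proliferative and quiet spots of 1480 scored in mouse A and 784 of 2614 in mouse B. In the test of the difference between the tissues, edgeR called none of 11860 genes (1589 at an unadjusted p under 0.05, lowest adjusted p = 0.13), and no other tool was run. The median of the mitotic list was 1.65 in the lung of mouse A and 2.20 in that of mouse B, next to 1.25 and 1.22 in the tumours. D cyclin, MYC and ribosome biogenesis genes had medians of 1.28 and 1.81 in the lungs and of 0.17 and 0.03 in the tumours. All 222 quiet spots of the lung of mouse A had no UMI on a score gene, as had 420 scored spots of that section, and the deepest of these were taken.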

How the data were processed

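UMI counts per gene and spot, as deposited by the authors from Space Ranger 2.0.0 on mm10 with no normalization, were used for 2 primary tumour sections, and for the lungs only in the test between tissues. The files list 19465 genes (19454 symbols), and the rows of 11 symbols with 2 identifiers were summed. Gene positions are from GENCODE vM21 on GRCm38, and promoters from RefSeq on GRCm38.p6. Cell type shares and doublets were not called.

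The sums were tested in R 4.3.3 with edgeR 4.0.16 (TMM, filterByExpr, quasi-likelihood test, Benjamini-Hochberg adjustment over all genes tested, threshold 0.05), with DESeq2 1.42.0 as an alternative. Standard errors were taken from the fold change and the F statistic of the fit, and do not measure the spread between the mice. Ccna2, with 0.14, changed by 1.68 and 1.83 in mouse A and mouse B alone. Saa3, with 0.24, changed by -1.01 and -2.11. Fold changes of 1 section are on the log2(CPM + 1) scale. The sums of a section come from the same animal, which pairs them. Deviations of the 2 sums of a section from the means of their classes correlated at 0.534, and the section was kept as a replicate block. With 2 mice the spread between animals is poorly known, and no exact permutation test can reach 0.05. The script was tested on simulated data. Python 3.11.15 and numpy 2.4.6 did the rest.

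The members, the 25 gene lists and the genes named were chosen with earlier results of these data known. Named genes are the score genes, the 8 largest increases and decreases among called genes with a mean of 20 or more CPM, up to 3 called members and the most abundant member of each list, and a set of usual markers. Histone symbols are those of the files. Some genes of this rule are not reported here. Epcam and Adgre1 were added after their values were seen, as markers. List values are counts and medians with no test over the list. Alternatives were other shares of spots, depth minimums of 2000 and 5000 UMIs, thinning, depth bins, part of the score genes, 1 threshold over both sections, carcinoma-rich spots, interior spots, no filter, other size factors and each section alone.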

Additional observations from a re-analysis of the deposited data

Results flagged for a closer look

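The medians of secreted 4T1 inflammatory genes had opposite signs in the 2 tissues under the same rule, those of the tumours being near 0 and between -0.16 and 0.06 under other settings, with both signs. Their median log2 fold change, proliferative over quiet spots, was -0.01 and -0.05 in the primary tumours of mouse A and mouse B and 1.77 and 1.54 in the lungs. In the tumours 7 of 21 tested members were higher and 8 were lower in both sections, against 3471 and 2502 of all 10060 genes tested outside the score. The median difference, primary tumour less lung, was -1.69. The difference of the list was not tested.

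Skin epidermis genes, of which 6 were tested in the tumours, had medians of 0.47 and 0.14 in the primary tumours and of -0.06 and -0.12 in the lungs, a median difference of 0.39 between primary tumour and lung. The fit over both tumours gave 0.04, other settings gave -0.66 to 1.11, and the summed list of mouse B was at 46.3 CPM in proliferative and 92.4 CPM in quiet spots. This difference was not tested either, and the list took 202 CPM or less of each tumour sum.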

How the results depend on the processing

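Counts of called genes moved with most choices. Against 114 genes (93 higher and 21 lower), no replicate block gave 0, DESeq2 30 (24 and 6), no filter on low counts 374, the top and bottom 10% 487, the top and bottom 25% 252, a minimum of 2000 UMIs 56 (29 and 27), a minimum of 5000 UMIs 186, a score from Mki67, Top2a, Ube2c and Cenpf 225, a score from Cdk1, Birc5 and Tpx2 11, a threshold over both sections 336, carcinoma-rich spots 423 (263 and 160), interior spots 411, neutrophil-poor spots 465 and macrophage-poor spots 184. DESeq2's size factors in edgeR gave 96, depth bins 90 and thinning 78. All of the 114 genes with a value kept their sign in each of these settings. With 1 section left out no test of this kind can be made.

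The mitotic median of 1.25 was 1.23 with no replicate block, 1.35 with no filter, 1.38 at 10%, 1.05 at 25%, 1.03 at 2000 UMIs, 1.41 at 5000 UMIs, 0.73 thinned, 1.27 in depth bins, 0.97 and 0.79 with the 2 parts of the score, 1.28 over both sections, 1.34 in carcinoma-rich, 1.27 in interior, 1.37 in neutrophil-poor and 1.53 in macrophage-poor spots. The antigen presentation median of 0.77 was 0.82 by DESeq2, 0.87 with no filter, 0.65 at 25%, 0.72 at 2000 UMIs, 0.97 at 5000 UMIs, 0.43 thinned, 0.92 in depth bins, 0.57 and 0.41 with the 2 parts of the score, 0.83 over both sections, 0.84 in carcinoma-rich, 1.04 in neutrophil-poor and 0.86 in macrophage-poor spots. With 1 mouse left out it was 0.81 to 0.86, the mitotic median 1.22 to 1.25 and the neutrophil median -1.86 to -0.39. The macrophage median of 0.16 turned to -0.14 in macrophage-poor spots, which the list itself chose, and to -0.022 without mouse A. The test between tissues, with no call, gave 172 genes with no filter (23 and 149), which tests genes near 0. The causes of these moves were not tested. The paired model rests on 2 sections, and low counts limit rare genes.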
